A study of Arabidopsis thaliana with 4 samples.

Results

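This is an account of 8 genes of 5′ mRNA decay in leaves of *Arabidopsis thaliana*, picked by gene code out of 23049 genes with reads in at least 1 table. They are LSM1A (AT1G19120), LSM1B (AT3G14080), PAT1 (AT1G79090), DCP2 (AT5G13570), DCP1 (AT1G08370), VCS (AT3G13300), DCP5 (AT1G26110) and XRN4 (AT1G54490). All 8 were read in every library, and all 8 were among the 17218 genes compared, those that averaged 1 CPM or more (count per M reads of the library). Leaves of soil-grown plants, 2 weeks old, gave 1 RNA sequencing library for each of 4 groups. The labels name the wild-type accession Col-0 at 20 °C, the mutant sme1-1 in the Col-0 background at 20 °C, Col-0 after 24 h at 4 °C, and sme1-1 after 24 h at 4 °C. Light was 90 µmol m-2 s-1 in growth and 40 µmol m-2 s-1 in the cold treatment, so light changes with the temperature label. SME1 encodes an Sm protein of the spliceosome, and the study asked about its part in development and in the cold response. The labels do not give the kind of lesion in sme1-1 or the number of plants in a library.

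The labels were checked against SME1 and against cold-induced genes, and they did not hold for every library. SME1 was at 14.7 CPM for the label Col-0 20 °C, 27.8 for sme1-1 20 °C, 0.679 for Col-0 4 °C and 0.919 for sme1-1 4 °C, so it was low in both libraries labelled 4 °C. COR15A, a cold-induced gene, was at 25.9, 5092, 30.1 and 6272 CPM in the same order, which is kept wherever 4 values are given, so it was high in both libraries labelled sme1-1. The library labelled sme1-1 20 °C and that labelled Col-0 4 °C therefore go against their labels, and every value below belongs to a library as labelled. Whether these tables were exchanged was not tested; if they were, each ratio of sme1-1 to Col-0 and the genotype term below would set 4 °C against 20 °C, and each temperature ratio and the temperature term would set sme1-1 against Col-0. For the 8 genes each ratio is given also between the library labelled sme1-1 4 °C and that labelled Col-0 20 °C, which leaves the doubtful ones out. In that ratio genotype, temperature and light differ at once and cannot be told apart. Depth was 44.6 M to 47.2 M reads, and 4 leaf markers summed to 62413 to 82145 CPM. Markers of roots, flowers and seeds, 7 genes, summed to 0.385 to 0.806 CPM, with the root hair genes EXPA7 and RHD6 at 0 in all 4 libraries.

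Decapping removes the 5′ cap of an mRNA and so commits it to decay in the cytoplasm. A ring of LSM proteins with LSM1 binds the shortened 3′ end together with PAT1, the catalytic subunit DCP2 with its partner DCP1 cuts the cap on a scaffold of VARICOSE (VCS), DCP5 takes part in decapping and in holding mRNAs back from translation, and the exoribonuclease XRN4 degrades the uncapped body from its 5′ end. In *Arabidopsis* these proteins gather in processing bodies, and loss of LSM1 or VCS disturbs seedling growth and the turnover of stress-induced transcripts. The same LSM partners form a nuclear ring with LSM8 in place of LSM1, which serves splicing.

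LSM1A and LSM1B are paralogues, so a stretch of their coding sequence is shown to let the reader see what separated their reads. It runs from coding base 95 to 184 in both genes (chromosomes 1 and 3, plus strand; RefSeq, build TAIR10.1), holds the longest identical run, and has the 22 of 90 mismatched bases in capitals.
LSM1A: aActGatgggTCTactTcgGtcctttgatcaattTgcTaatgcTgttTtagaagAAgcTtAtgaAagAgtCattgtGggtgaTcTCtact
LSM1B: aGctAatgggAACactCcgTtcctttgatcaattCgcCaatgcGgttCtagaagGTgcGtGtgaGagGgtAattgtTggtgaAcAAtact
Over 385 aligned coding bases 76.6% were identical, and the longest identical run was 14 bases. VCS and its neighbour on chromosome 3, VARICOSE-RELATED (VCR, AT3G13290), were 89.5% identical over 3969 aligned bases. Their longest identical run, 67 bases from coding base 2668 of VCS and 2671 of VCR, is shown because a read that falls wholly within it names neither gene.
VCS and VCR: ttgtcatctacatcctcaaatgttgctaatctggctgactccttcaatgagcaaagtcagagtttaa
The tables count uniquely mapped reads, so reads that match both paralogues are missing from both, and the levels of VCS and VCR are uncertain by that amount. LSM1A overlaps genes on the other strand over 91 of its 767 exon bases, and the strand of a read is not recorded, so part of its reads may belong to them. None of the other 7 genes overlaps an annotated gene.

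The 250 bases before the gene start were searched on both strands for CCGAC, the core of the element bound by CBF/DREB1 factors, for ACGTG, the core of the abscisic acid response element, and for AAATATCT, the evening element. CCGAC stood before 1 of the 8 genes and before 12.0% of 27443 genes, ACGTG before 2 and 22.9%, and AAATATCT before 1 and 4.79%. DCP2 and PAT1 are shown because DCP2 had the widest range of levels over the libraries and PAT1 the largest ratio of 4 °C to 20 °C between the libraries labelled sme1-1. The DCP2 window (TAIR10.1, chr5:4367012-4367261, plus strand) holds CCGAC on the opposite strand, seen as GTCGG in capitals, 42 bases before the start. The PAT1 window (TAIR10.1, chr1:29753331-29753580, minus strand) holds CACGTG, in capitals, which is ACGTG on both strands, 223 and 222 bases before the start.
DCP2: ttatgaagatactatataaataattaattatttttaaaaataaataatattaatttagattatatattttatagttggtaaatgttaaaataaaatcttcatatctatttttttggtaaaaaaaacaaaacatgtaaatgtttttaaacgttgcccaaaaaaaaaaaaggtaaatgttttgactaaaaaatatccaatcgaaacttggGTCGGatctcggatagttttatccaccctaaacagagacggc
PAT1: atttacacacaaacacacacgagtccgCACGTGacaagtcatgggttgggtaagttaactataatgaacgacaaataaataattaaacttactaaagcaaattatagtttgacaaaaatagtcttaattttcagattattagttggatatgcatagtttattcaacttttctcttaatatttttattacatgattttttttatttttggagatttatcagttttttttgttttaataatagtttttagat
LSM1B had ACGTG 230 and AAATATCT 111 bases before its start, in a window that overlaps the neighbouring gene AT3G14075. The windows of the other 5 genes held none of the 3 motifs. Among them, the windows of LSM1A, DCP1 and VCS also overlap neighbouring genes (AT1G19115, AT1G08360 and AT3G13290). All motif matches given here are matches of letters only.

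Per unit of gene length, DCP5 transcripts were the most abundant of the 8 and LSM1A transcripts the least. The deposited RPKM (reads per kilobase per M reads) averaged 82.0 for DCP5, with a range of 70.2 to 94.8 over the 4 libraries. DCP1 followed at 36.2 (35.1 to 37.4) and VCS at 32.2 (23.6 to 43.9), and these ranges overlapped. The deposited length of DCP1 was 1465 bases, while its shortest RefSeq transcript has 1718. Those of VCS (4510) and XRN4 (3219) were also below their shortest RefSeq transcripts (4516 and 3301). The RPKM of these genes therefore depends on the length used. PAT1 averaged 20.9 RPKM (17.6 to 27.0) and XRN4 14.8 (11.4 to 18.2), and their ranges also overlapped. DCP2 averaged 9.58 RPKM (6.44 to 13.2) and LSM1B 8.25 (6.89 to 9.50), again overlapping, and LSM1A averaged 4.78 (4.21 to 5.77), below every LSM1B value. The catalytic subunit DCP2 was thus read at a lower level per length than DCP1, VCS, DCP5 and PAT1. Its range overlapped those of XRN4 and LSM1B. DCP1 exceeded DCP2 by 5.45 times in RPKM for the label Col-0 20 °C, 3.18 for sme1-1 20 °C, 5.13 for Col-0 4 °C and 2.77 for sme1-1 4 °C. DCP5 exceeded DCP2 by 12.4, 8.07, 10.1 and 6.31 times in the same order. Both ratios were smaller in the libraries labelled sme1-1, where DCP2 was higher.

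**Figure D1:**
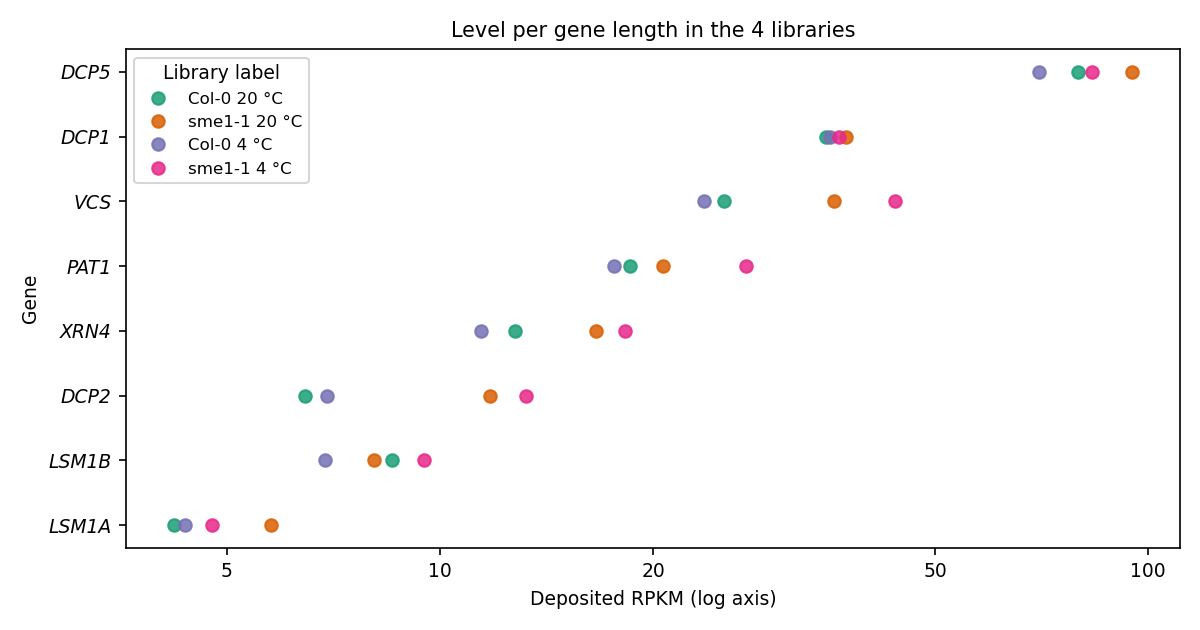
Deposited RPKM (x axis, log scale) of the 8 genes (y axis, ordered by mean) in the 4 libraries, 1 point per library, coloured by label. DCP5 lies highest at 70.2 to 94.8 and LSM1A lowest at 4.21 to 5.77, and the DCP1 points nearly coincide at 35.1 to 37.4.

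Across the libraries, DCP2 varied most and DCP1 least. The highest level exceeded the lowest 2.05-fold for DCP2, 1.86-fold for VCS, 1.59-fold for XRN4 and 1.54-fold for PAT1. It did so 1.38-fold for LSM1B, 1.37-fold for LSM1A, 1.35-fold for DCP5 and 1.07-fold for DCP1. By file totals, 7 of the 8 genes were higher in both libraries labelled sme1-1 than in both labelled Col-0, as were 37.9% of all genes compared; the exception was LSM1B. With TMM or DESeq2 scaling DCP1 and DCP5 left this count, which became 5 of 8 beside 34.1% or 34.2% of genes. Of 4 leaf markers, RCA and CA1 were lower in both libraries labelled sme1-1 and passed the additive edgeR test described below, and RBCS1A and CAB1 did not pass. RCA was at 9982, 3532, 8824 and 3658 CPM, and CA1 at 10179 CPM for the label Col-0 20 °C, 3455 for sme1-1 20 °C, 10939 for Col-0 4 °C and 3360 for sme1-1 4 °C. RBCS1A was at 31947, 28618, 34005 and 27229 CPM (log2 difference with the label sme1-1 -0.31, adjusted p 0.154), and CAB1 at 23751, 29266, 28377 and 28165 CPM (0.07, adjusted p 0.752). Their part in the levels of the 8 genes was not tested, and in whole leaves fewer cells of a type and less RNA per cell cannot be told apart.

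With 1 library per group there is no spread between replicates for any ratio of 2 libraries. Each such ratio is of counts scaled to the file total and carries an exact 95% interval that covers counting error only. The sole test is an additive model of genotype label and temperature label over the 4 libraries (edgeR quasi-likelihood test, TMM scaling, p adjusted by Benjamini-Hochberg over 17218 genes, threshold 0.05). It has 1 residual degree of freedom, and its log2 differences are on the TMM scale. That residual holds noise together with any difference between the genotype ratios at 4 °C and 20 °C, which is given below for the 8 genes. The variance also draws on a prior from all genes (11.5 degrees of freedom), so the p-values do not measure a spread between replicates. The model includes the libraries that go against their labels, and without them it could not be fitted. Under the genotype label 40.8% of all genes passed the threshold, 20.5% higher and 20.3% lower with the label sme1-1, so a call is common. Of the 8 genes 3 passed, all higher: DCP2, VCS and XRN4. Under the temperature label 1.30% of genes passed and none of the 8 did, by edgeR or by DESeq2, and none had an unadjusted p below 0.05, against 14.6% of all genes in edgeR.

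**Figure D2:**
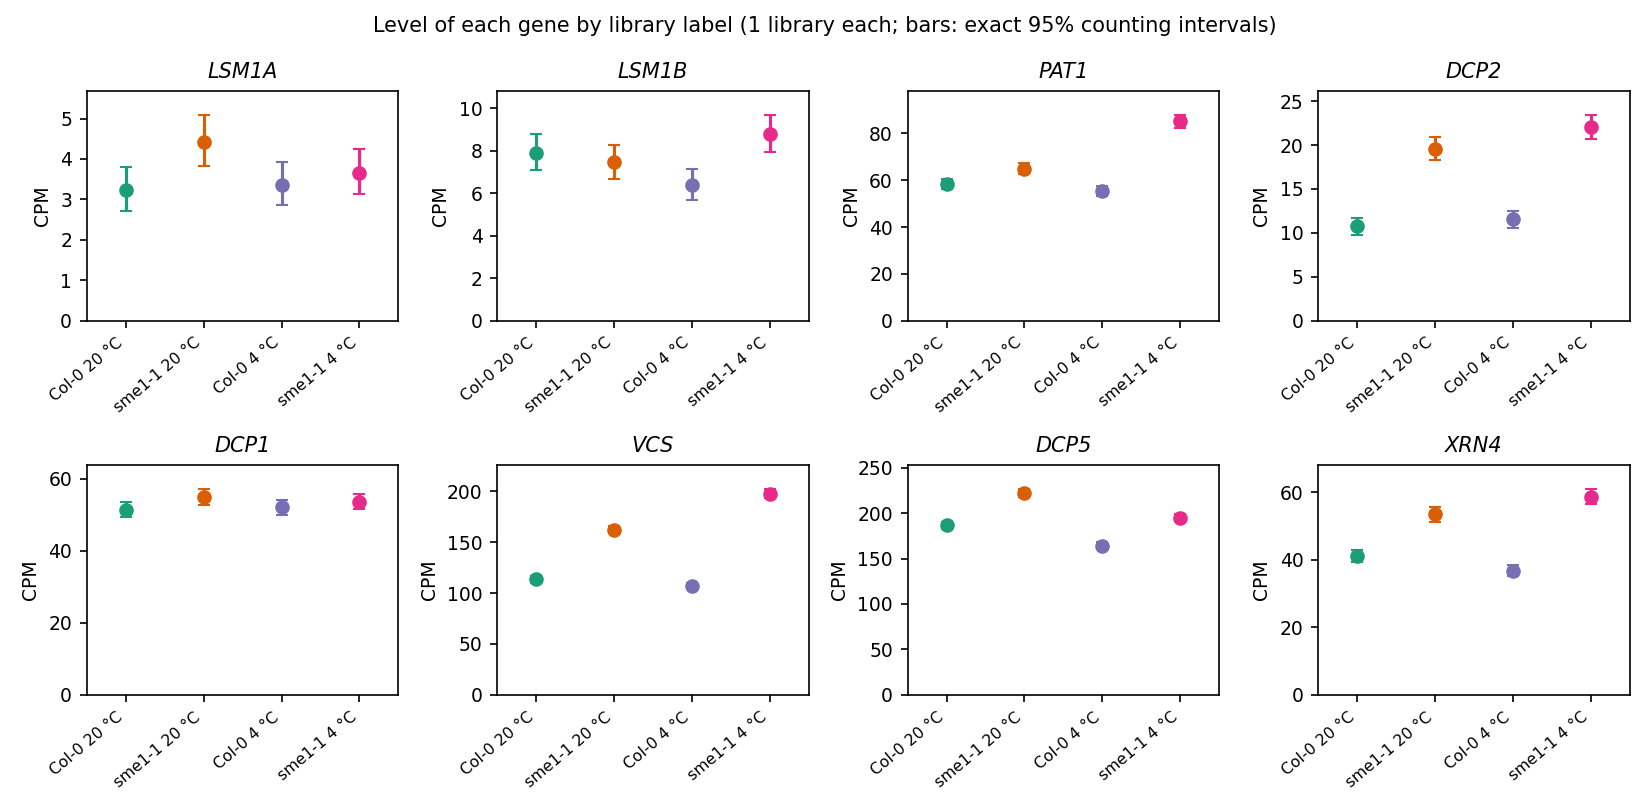
Level in CPM (y axis, counts scaled to the file total, each panel from 0) of each of the 8 genes in the 4 libraries (x axis, by label); points are single libraries and bars exact 95% counting intervals. DCP2 and VCS lie higher in both libraries labelled sme1-1 (19.6 and 22.0 CPM, 162 and 198 CPM), while DCP1 stays within 51.4 to 54.8 CPM.

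The LSM1 genes, which give the cytoplasmic ring its identity, were read at low levels with no shared pattern. LSM1A was at 3.23 CPM (144 reads) for the label Col-0 20 °C, 4.42 (199) for sme1-1 20 °C, 3.35 (158) for Col-0 4 °C and 3.65 (171) for sme1-1 4 °C. It was highest in the library labelled sme1-1 20 °C, and its counting interval there overlapped all but that of the library labelled Col-0 20 °C. Between the libraries labelled sme1-1 and Col-0 the LSM1A ratio was 1.37 (1.10 to 1.71) at 20 °C and 1.09 (0.873 to 1.36) at 4 °C. LSM1B was at 7.91, 7.45, 6.36 and 8.78 CPM (353, 335, 300 and 411 reads) in that order. It was highest in the library labelled sme1-1 4 °C and lowest in Col-0 4 °C, and the libraries of the 2 genotype labels overlapped. Its ratio of sme1-1 to Col-0 was 0.941 (0.808 to 1.10) at 20 °C and 1.38 (1.19 to 1.61) at 4 °C.

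In the additive model neither LSM1 gene passed the threshold for genotype label. The log2 difference was 0.22 ± 0.26 (SE) for LSM1A, with an adjusted p of 0.519, and 0.12 ± 0.21 for LSM1B, with an adjusted p of 0.681. Between the library labelled sme1-1 4 °C and that labelled Col-0 20 °C the ratio was 1.13 (0.901 to 1.42) for LSM1A and 1.11 (0.960 to 1.28) for LSM1B, and both intervals include 1. Together the genes had 11.1 CPM for the label Col-0 20 °C, 11.9 for sme1-1 20 °C, 9.71 for Col-0 4 °C and 12.4 for sme1-1 4 °C. LSM1B gave 71.0% of the pair's reads under the label Col-0 20 °C (Clopper-Pearson 95% interval 66.8 to 75.0) and 70.6% (66.7 to 74.3) under sme1-1 4 °C. Its share was 62.7% (58.5 to 66.8) in the library labelled sme1-1 20 °C and 65.5% (61.0 to 69.9) in Col-0 4 °C. Per length, LSM1B exceeded LSM1A by 1.40 to 2.03 times in RPKM, so it was the more abundant LSM1 transcript in all 4 libraries. LSM8, the nuclear counterpart of LSM1, was at 21.1, 42.5, 19.7 and 32.6 CPM, and passed as higher with the label sme1-1 (log2 difference 0.80 ± 0.16, adjusted p 0.00192).

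PAT1, the protein that joins the LSM1 ring to the decapping enzyme, stood out in the library labelled sme1-1 4 °C. Its levels were 58.4 CPM (2606 reads) for the label Col-0 20 °C, 64.9 (2920) for sme1-1 20 °C, 55.4 (2612) for Col-0 4 °C and 85.1 (3984) for sme1-1 4 °C. Both libraries labelled sme1-1 were above both labelled Col-0, with the library labelled sme1-1 20 °C only slightly so. Its ratio of sme1-1 to Col-0 was 1.11 (1.05 to 1.17) at 20 °C and 1.54 (1.46 to 1.61) at 4 °C. The ratio of sme1-1 4 °C to Col-0 20 °C was 1.46 (1.39 to 1.53). PAT1 did not pass the test for genotype label (log2 difference 0.32 ± 0.16 SE, adjusted p 0.139). Of all genes compared, 42.2% had a larger ratio at 20 °C and 22.9% at 4 °C. The annotation gives this gene as a topoisomerase II-associated protein, the older name of the family, and the name PAT1 comes from the selection.

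DCP2, which cuts the cap, differed most between the genotype labels. It was at 10.7 CPM (479 reads) for the label Col-0 20 °C, 19.6 (881) for sme1-1 20 °C, 11.5 (544) for Col-0 4 °C and 22.0 (1031) for sme1-1 4 °C. The libraries labelled sme1-1 were both well above those labelled Col-0, and the counting intervals of the labels did not overlap. The ratio of sme1-1 to Col-0 was 1.82 (1.63 to 2.04) at 20 °C and 1.91 (1.72 to 2.12) at 4 °C, and these comparisons share no library. Larger ratios were seen in 11.4% of all genes at 20 °C and in 13.2% at 4 °C. In the additive model DCP2 was higher with the label sme1-1 by 0.83 ± 0.17 (log2, SE), with an adjusted p of 0.00194. Between the library labelled sme1-1 4 °C and that labelled Col-0 20 °C it was 2.05-fold higher (1.84 to 2.29).

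DCP1, the activator bound to DCP2, did not move with it. Its levels were 51.4 CPM (2294 reads) for the label Col-0 20 °C, 54.8 (2465) for sme1-1 20 °C, 52.0 (2454) for Col-0 4 °C and 53.6 (2510) for sme1-1 4 °C. All 4 values lay within 1.07-fold of each other. Set against Col-0, the label sme1-1 had a ratio of 1.07 (1.01 to 1.13) at 20 °C and 1.03 (0.974 to 1.09) at 4 °C. On the TMM scale, where every gene's log2 ratio at 4 °C is 0.10 lower, the log2 ratio of DCP1 at 4 °C turned from 0.04 to -0.06. The additive model gave a log2 difference of -0.00 ± 0.15 (SE) for genotype label, with an adjusted p of 0.989. Set as sme1-1 4 °C to Col-0 20 °C the ratio was 1.04 (0.985 to 1.10).

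VCS, the scaffold that holds DCP1 and DCP2 together, was higher in the libraries labelled sme1-1. It was at 113 CPM (5062 reads) for the label Col-0 20 °C, 162 (7299) for sme1-1 20 °C, 106 (5021) for Col-0 4 °C and 198 (9258) for sme1-1 4 °C. The libraries labelled Col-0 lay close together and those labelled sme1-1 lay above them and apart from each other. The ratio of sme1-1 to Col-0 was 1.43 (1.38 to 1.48) at 20 °C and 1.86 (1.79 to 1.92) at 4 °C, with larger ratios in 22.3% and 14.1% of all genes. VCS passed the test as higher with the label sme1-1, with a log2 difference of 0.63 ± 0.16 (SE) and an adjusted p of 0.00803. VCS was 1.74-fold higher (1.68 to 1.80) in sme1-1 4 °C than in Col-0 20 °C. Its paralogue VCR was at 25.1, 35.5, 28.4 and 44.6 CPM in the same order, and passed in the same direction (log2 difference 0.51 ± 0.15, adjusted p 0.0185). VCS exceeded VCR in RPKM by 4.57, 4.62, 3.80 and 4.49 times, so the ratio of the paralogues was smallest in the library labelled Col-0 4 °C.

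DCP5, a decapping factor that also represses translation, was the most abundant of the 8 per unit of gene length and differed little. It was at 186 CPM (8312 reads) for the label Col-0 20 °C, 222 (9969) for sme1-1 20 °C, 164 (7738) for Col-0 4 °C and 195 (9123) for sme1-1 4 °C. The library labelled sme1-1 20 °C was highest, and each library labelled 4 °C was below the 20 °C library of its genotype label. Between the genotype labels the ratio of sme1-1 to Col-0 was 1.19 in both pairs (1.16 to 1.22 at 20 °C and 1.15 to 1.22 at 4 °C). DCP5 did not pass the test (log2 difference 0.18 ± 0.16 SE, adjusted p 0.384). Between the library labelled sme1-1 4 °C and that labelled Col-0 20 °C the ratio was 1.05 (1.02 to 1.08). Its paralogue DCP5-L was much less abundant in reads, at 8.25, 16.2, 10.3 and 23.2 CPM in the same order. DCP5-L was 1.96-fold higher at 20 °C and 2.24-fold higher at 4 °C in the library labelled sme1-1 than in that labelled Col-0, and it passed the test (log2 difference 1.00 ± 0.17, adjusted p 0.000664).

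XRN4, which degrades decapped mRNA, was higher in the libraries labelled sme1-1, but its call depended on the tool. It was at 41.1 CPM (1834 reads) for the label Col-0 20 °C, 53.5 (2406) for sme1-1 20 °C, 36.8 (1736) for Col-0 4 °C and 58.7 (2746) for sme1-1 4 °C. Both libraries labelled sme1-1 were above both labelled Col-0, without overlap of the counting intervals. For XRN4 the ratio of sme1-1 to Col-0 was 1.30 (1.22 to 1.38) at 20 °C and 1.59 (1.50 to 1.69) at 4 °C. The edgeR log2 difference was 0.46 ± 0.15 (SE) with an adjusted p of 0.0324, whereas DESeq2 gave an adjusted p of 0.0683, in a range of 0.0140 to 0.0683 over the alternatives. From Col-0 20 °C to sme1-1 4 °C the ratio was 1.43 (1.34 to 1.51).

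**Figure D3:**
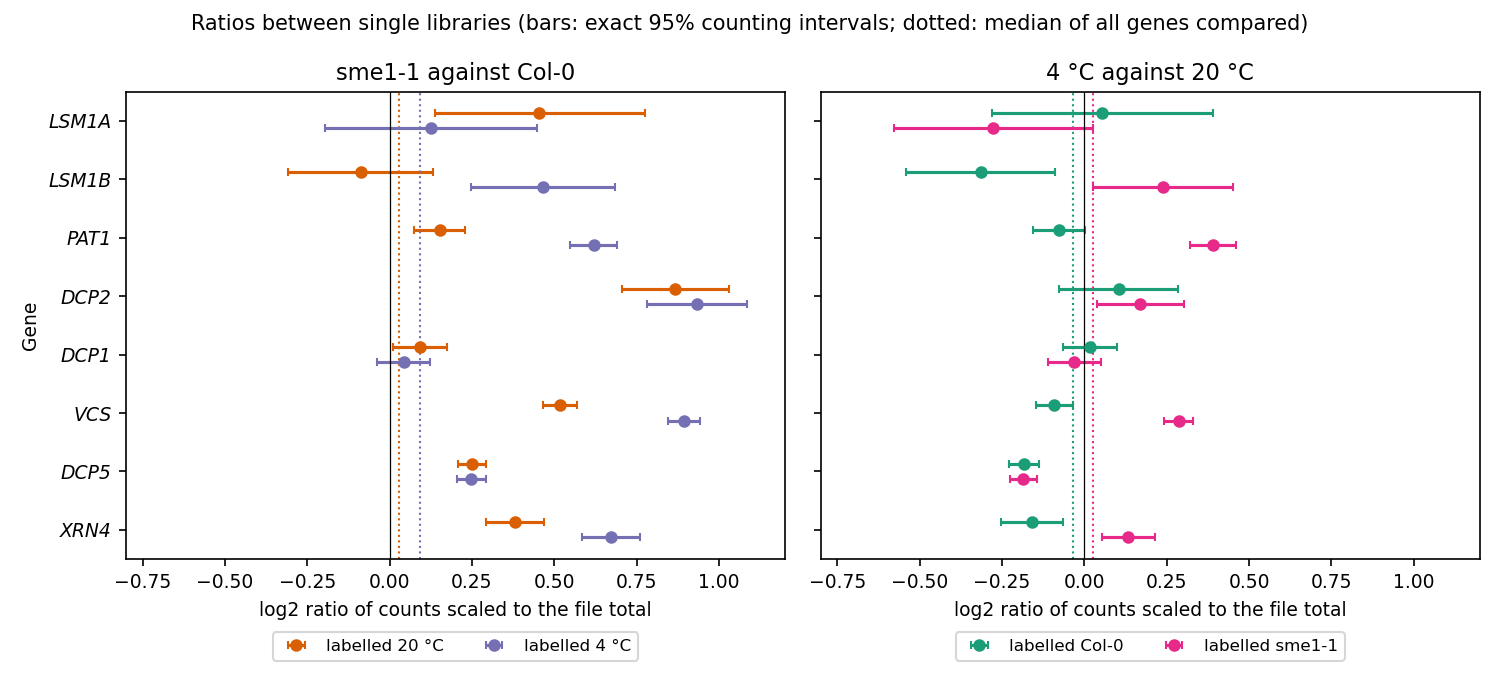
Log2 ratio (x axis) of each of the 8 genes (y axis) between single libraries, sme1-1 against Col-0 on the left and 4 °C against 20 °C on the right; bars are exact 95% counting intervals and dotted lines the median of all genes compared. DCP2 lies farthest to the right on the left side (0.87 and 0.93), DCP1 lies nearest to 0 at 4 °C (0.04, and -0.06 with TMM scaling), and on the right no gene reaches a log2 ratio of 0.39 except PAT1 in the libraries labelled sme1-1.

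As a group the 8 genes had a median log2 ratio of sme1-1 to Col-0 of 0.32 at 20 °C, beside 0.03 for all genes compared, and of 0.54 at 4 °C, beside 0.09. The ratio was above 0 for 7 of the 8 at 20 °C, beside 51.8% of all genes, and for 8 of 8 at 4 °C, beside 55.2%; DCP1 falls below 0 at 4 °C under TMM scaling. At 20 °C 1 of the 8, DCP2, was at least 1.5-fold higher, beside 19.5% of all genes. At 4 °C DCP2, VCS, PAT1 and XRN4 were, 4 of 8 beside 24.3%, but with TMM or DESeq2 scaling only DCP2 and VCS, 2 of 8 beside 20.5% or 20.7%. None reached 2-fold in either comparison, as 9.08% and 11.8% of all genes did. Between the library labelled sme1-1 4 °C and that labelled Col-0 20 °C the median of the 8 was 0.35, beside 0.07 for all genes.

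Levels in the libraries labelled 4 °C and 20 °C were close within each genotype label. In the libraries labelled Col-0 the median log2 ratio of 4 °C to 20 °C was -0.08 for the 8 genes and -0.03 for all genes, and none of the 8 was 1.5-fold apart, beside 3.03% of genes higher and 4.43% lower. DCP5 had a log2 ratio of -0.18 (-0.23 to -0.14) there, LSM1B of -0.31 (-0.54 to -0.09), XRN4 of -0.16 (-0.25 to -0.06) and VCS of -0.09 (-0.15 to -0.03). The intervals of LSM1A, DCP1, DCP2 and PAT1 included 0. In the libraries labelled sme1-1 the median was 0.15, beside 0.03 for all genes, and again none of the 8 was 1.5-fold apart, beside 10.5% of genes higher and 9.53% lower. PAT1 had the largest log2 ratio of the 8 there, 0.39 (0.32 to 0.46), followed by VCS at 0.29 (0.24 to 0.33), LSM1B at 0.24 (0.03 to 0.45) and DCP2 at 0.17 (0.04 to 0.30). XRN4 was at 0.13 (0.05 to 0.21) and DCP5 at -0.19 (-0.23 to -0.14), while the intervals of LSM1A and DCP1 included 0. LSM1B, VCS and XRN4 had opposite signs in the 2 comparisons with both intervals clear of 0, 3 of 8 beside 9.33% of all genes; with TMM or DESeq2 scaling LSM1B left this count, 2 of 8 beside 9.23% or 9.21%. DCP5 had nearly the same ratio in both comparisons. In the additive model its log2 difference for temperature label was -0.18 ± 0.16 (SE), with an adjusted p of 0.645.

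The ratio of sme1-1 to Col-0 was larger at 4 °C than at 20 °C for 4 genes beyond counting error, as it was for 32.3% of all genes. For none of the 8 was it smaller beyond counting error, as it was for 23.9% of genes. The log2 ratio at 4 °C minus that at 20 °C was 0.55 (0.25 to 0.86) for LSM1B, 0.47 (0.36 to 0.57) for PAT1, 0.38 (0.31 to 0.45) for VCS and 0.29 (0.17 to 0.42) for XRN4. For LSM1A it was -0.33 (-0.77 to 0.11), for DCP2 0.07 (-0.15 to 0.29) and for DCP1 -0.05 (-0.16 to 0.07). DCP5 was between -0.06 and 0.06. The median over all genes was 0.06, and larger values were seen in 12.3% of genes than in LSM1B, 15.9% than in PAT1, 21.2% than in VCS and 27.2% than in XRN4. With 1 library per group this difference has no replicate check.

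DCP2 and VCS, which had the widest range of levels, were compared with all genes by the distance between their log2 CPM over the 4 libraries, centred on each gene's mean. Over only 4 libraries many genes lie close: 299 were within 0.2 of DCP2 and 499 within 0.2 of VCS. Nearest to DCP2 were AT4G14500 (distance 0.04), UNE6 and AT5G16130 (0.05 each). Nearest to VCS were CKA3 (0.01), CARB and AT2G46230 (0.02 each). CKA3 was at 13.2 CPM for the label Col-0 20 °C, 18.9 for sme1-1 20 °C, 12.3 for Col-0 4 °C and 22.7 for sme1-1 4 °C. The distance between VCS and DCP2 was 0.25, and 556 genes were nearer to DCP2 than VCS was. XRN4 was 0.21 from VCS, and DCP1 was the farthest of the 8 from both.

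Among other genes of mRNA decay, 42 in 6 lists, the genotype label gave 17 higher and 2 lower calls by edgeR, and 11 and 1 by DESeq2. Over all genes edgeR called 20.5% higher and 20.3% lower, and DESeq2 16.2% and 15.2%. With file totals in place of TMM factors edgeR called 22 of the 42 higher and 1 lower, beside 4171 and 3090 of the 17218 genes. On the TMM scale the median log2 difference was 0.35 for the 42, beside 0.27 for the 8 genes and -0.01 for all genes. Of the 42, 31 were higher in both libraries labelled sme1-1 than in both labelled Col-0, which is 73.8% beside 37.9% of all genes. For temperature label none of the 42 passed by edgeR or by DESeq2.

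Of 9 further LSM ring genes, which serve both rings apart from LSM8, 4 passed as higher and none as lower, though 1 passed in DESeq2. Among all genes edgeR called 20.5% higher and 20.3% lower. LSM5 had 8.61, 13.8, 7.34 and 10.4 CPM and an adjusted p of 0.0459 (0.0250 to 0.134 over the alternatives). Of 8 relatives of the decapping genes 3 passed as higher, among them DCP5-L and VCR, and 1 as lower, the PAT1 homologue AT3G22270, whose call DESeq2 did not make. Of 3 genes around the exoribonucleases 2 passed as higher. SAL1, also called FRY1, the phosphatase that clears an inhibitor of the XRN enzymes, was at 36.1, 51.8, 45.6 and 70.0 CPM and passed (log2 difference 0.50 ± 0.15, adjusted p 0.0189). XRN3, a nuclear enzyme, was at 63.8, 90.7, 53.1 and 65.7 CPM and did not pass (adjusted p 0.105). With file totals in place of TMM factors XRN3 passed in edgeR (adjusted p 0.0473), whereas DESeq2 gave an adjusted p of 0.185.

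Of 7 deadenylation genes, which shorten the poly(A) tail before decapping, 1 passed as higher, a call that DESeq2 did not make, and 1 as lower. Among all genes 20.5% passed as higher and 20.3% as lower. The lower one, the deadenylase CAF1a, was at 21.9 CPM for the label Col-0 20 °C, 4.29 for sme1-1 20 °C, 14.4 for Col-0 4 °C and 2.35 for sme1-1 4 °C. That is 5.10-fold lower at 20 °C and 6.12-fold lower at 4 °C with the label sme1-1, and its adjusted p was 1.82e-06. PARN was at 7.51, 8.85, 7.93 and 14.4 CPM and did not pass (adjusted p 0.0784). With file totals in place of TMM factors PARN passed in edgeR (adjusted p 0.0470), whereas DESeq2 gave an adjusted p of 0.196. Of 10 genes of decay from the 3′ end 5 passed as higher and none as lower. DESeq2 called 4 of the 10 higher, beside 16.2% of all genes. RRP4, a subunit of the exosome, was at 5.22, 8.27, 3.48 and 8.72 CPM and passed (log2 difference 0.92 ± 0.23, adjusted p 0.00684), and the exoribonuclease SOV was at 23.9, 17.9, 25.9 and 36.2 CPM and did not (adjusted p 0.903).

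Of 5 genes of nonsense-mediated decay 2 passed as higher, beside 20.5% of all genes, and DESeq2 called 1 higher, beside 16.2%. UPF3, a core factor of that pathway, was at 20.2, 27.1, 20.6 and 32.9 CPM and passed (adjusted p 0.0265, and 0.0121 to 0.0756 over the alternatives). In a separate list of 6 kinases of the classes that act on decapping proteins 1 passed as higher and 1 as lower. Among all genes 20.5% and 20.3% did so, and DESeq2 called 0 of the 6 higher. The lower one, SNRK2.5, of the SnRK2 class that phosphorylates VCS, was at 1.66, 0.289, 1.65 and 0.470 CPM (adjusted p 0.00107). It had only 74, 13, 78 and 22 reads. MPK4, which phosphorylates PAT1, was at 38.4, 47.0, 35.4 and 64.3 CPM (adjusted p 0.0288, and 0.0120 to 0.0561 over the alternatives).

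Of 4 transcripts used as readouts of decapping in *Arabidopsis*, 1 passed as lower for genotype label, beside 20.3% of all genes. The log2 difference with the label sme1-1 was above 0 for 2 of the 4 and below 0 for 2, with a median of -0.006. RAP2.4 was at 115 CPM for the label Col-0 20 °C, 60.0 for sme1-1 20 °C, 124 for Col-0 4 °C and 75.9 for sme1-1 4 °C (log2 difference -0.89 ± 0.16, adjusted p 0.000746). EXLA1, an expansin-like gene, was at 14.3, 12.9, 6.34 and 6.05 CPM and passed as lower for temperature label, with a log2 difference of -1.13 ± 0.19 and an adjusted p of 0.0128. EXLA1 was low in both libraries labelled 4 °C and nearly equal between the genotype labels.

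**Figure D4:**
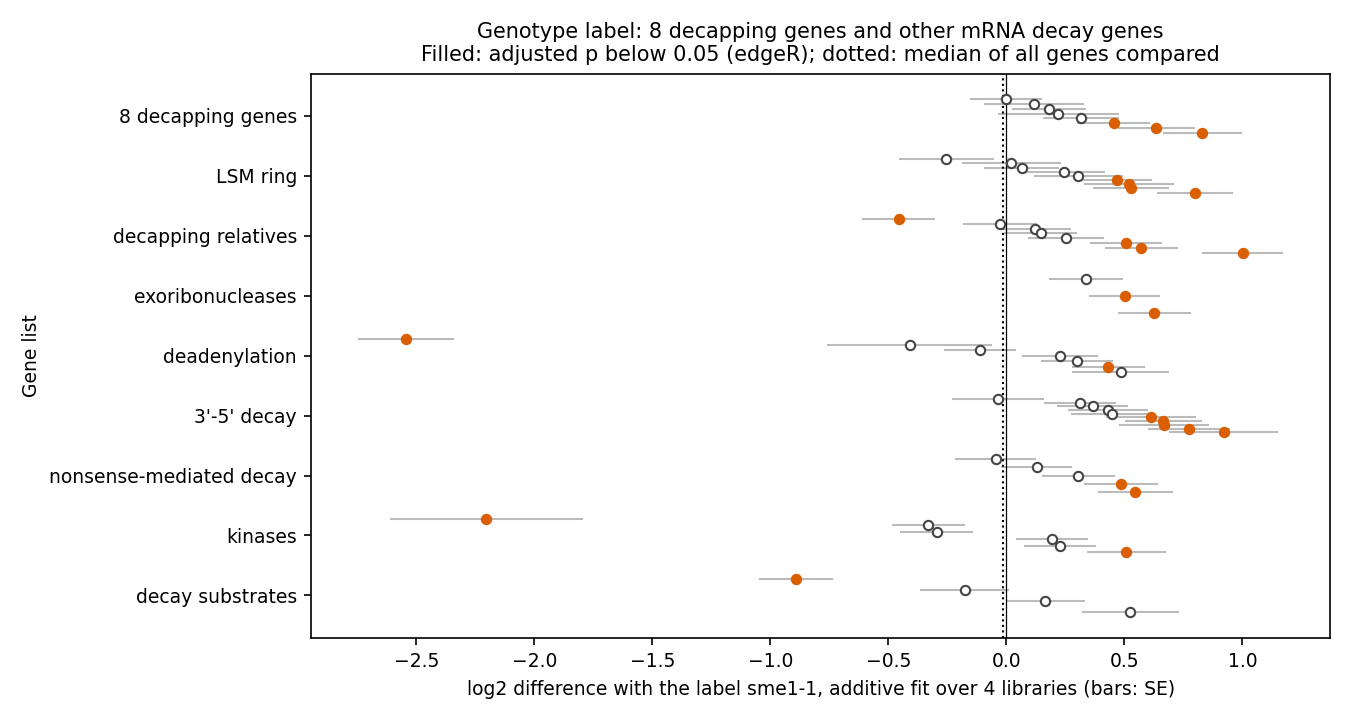
Log2 difference with the label sme1-1 (x axis, additive edgeR fit, TMM scale, bars SE) for the 8 decapping genes and the other mRNA decay genes by list (y axis); filled points have an adjusted p below 0.05. DCP2, VCS and XRN4 are the 3 filled points in the top row, 18 others are filled to the right (17 decay genes and MPK4) and, left of 0, AT3G22270, CAF1a, SNRK2.5 and RAP2.4 are filled.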

How the data were processed

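RNA sequencing tables of 4 leaf libraries, 1 per group, were used. Per the file headers, each table gives for every gene a count of uniquely mapped reads, the percent coverage of its length and RPKM. Coverage and RPKM were used as the authors deposited them. Per the submitters' processing notes the build was TAIR10; the aligner and counting rule are not given in the sources read. Gene names, coding sequences and promoters came from RefSeq TAIR10.1, joined by gene code (22861 of 23049 codes matched); the tables hold no coordinates.

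Counts were scaled to the file total (CPM), with 0 for genes a table lacks. The 17218 genes averaging 1 CPM or more were compared. Depth was 44.6 M to 47.2 M reads; a count of 0 allows up to 3 reads, 0.0636 to 0.0672 CPM. Intervals (95%, for ratios of counts and for shares) cover counting error only, since each group has 1 library. Reads without molecular identifiers are not independent molecules, so the intervals may be too narrow even for counting error.

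The additive model used edgeR 4.0.16 on counts with TMM factors of 0.988 to 1.04 (common dispersion 0.0210, prior degrees of freedom 11.5) and was tested on simulated data. The SE given with a log2 difference is its absolute value divided by the square root of the test's F statistic. It is not a spread between replicates. DESeq2 1.42.0, other scalings and no filter were alternatives. The 8 genes and all lists were chosen with earlier results of these data known. All 8 are named. Of each other list, members at least 2-fold apart in any comparison are named, or up to 2 with the widest range, where the annotation pairs name and code; AT3G22270 was added after its value was seen. 1 gene that this rule names is not reported here. R 4.3.3 and, in Python 3.11.15, scipy 1.17.1, pandas 2.3.3, numpy 2.4.6 and matplotlib 3.10.9 were used.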

Additional observations from a re-analysis of the deposited data

Results flagged for a closer look

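For 3 of the 8 genes the log2 ratio of 4 °C to 20 °C had opposite signs in the libraries labelled Col-0 and sme1-1, with both counting intervals clear of 0, as did 9.33% of all genes compared. LSM1B was at -0.31 in the libraries labelled Col-0 and at 0.24 in those labelled sme1-1. VCS was at -0.092 and 0.29 in the same order, and XRN4 at -0.16 and 0.13. With TMM or DESeq2 scaling the interval of LSM1B in the libraries labelled sme1-1 included 0, and VCS and XRN4 were the genes left. With 1 library per group these differences were not tested, and the library labelled sme1-1 20 °C and that labelled Col-0 4 °C, which go against their labels, enter 1 ratio each.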

How the results depend on the processing

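No paired analysis was possible because the labels carry no replicate numbers and each group has 1 library. For the same reason no replicate could be left out, since 3 libraries leave the additive model no residual degree of freedom. DESeq2 ended the call of XRN4 (adjusted p 0.0683) and no other call of the 8 genes. TMM and DESeq2 size factors each took 5 of 32 ratios of the 8 genes outside their counting intervals, and each changed 1 sign, that of DCP1 at 4 °C (-0.06 and -0.05). The fitted log2 difference of DCP1, which was not called, also changed sign with file totals (0.07) and without the filter (0.01). The median log2 ratio of the 8 at 4 °C, 0.54, became 0.44 with TMM, 0.45 with DESeq2 size factors and 0.35 between sme1-1 4 °C and Col-0 20 °C, the last an alternative added after the data were seen, as was the count of genes higher in both libraries labelled sme1-1 (7, or 5 with either scaling) and the rescaled count of those at least 1.5-fold higher at 4 °C (4, or 2). Without the filter, genes at least 2-fold apart numbered 4399 in place of 2792 and 5128 in place of 3391 for genotype at 20 °C and 4 °C, and 1489 in place of 299 and 2546 in place of 1003 for temperature in Col-0 and sme1-1, as more genes of low count were compared. Genes passing the test for temperature label numbered 224, against 389 with file totals (the cause was not tested) and 475 without the filter. LSM1A, at 144 to 199 reads, had the widest intervals of the 8, and its ratio of 1.09 (0.873 to 1.36) at 4 °C was not distinguishable from 1 at this depth.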
